A study of Mus musculus with 44 samples.

Results

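The aldosterone and WNK pathway regulators described here were 10 genes fixed by name, Wnk1, Wnk4, Stk39, Oxsr1, Sgk1, Nedd4l, Klhl3, Cul3, Nr3c2 and Hsd11b2, out of 24733 genes with any signal in a kallisto transcript table of mouse kidney. All 10 were present, and all 10 passed the filter for testing, which kept the 12874 genes that averaged 1 TPM or more. TPM is a transcript's share of its library, corrected for transcript length. The libraries were made from polyA-selected kidney RNA of 129SV mice aged 8 to 12 weeks, kept under night-restricted feeding. One group was wild type (WT) and the other was Bmal1 knockout (KO), lacking the clock transcription factor encoded by Arntl. Zeitgeber time (ZT) counts the hours of the light cycle, and 2 libraries, A and B, were made per genotype at each of ZT0, ZT4, ZT8, ZT12, ZT16 and ZT20. The labels give strain, genotype and feeding for every library, and name no Cre driver and no deleted exon. Nothing in them says that libraries A and B came from separate animals, so the p-values measure only the spread between these libraries, which may be technical.

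These regulators act on salt transport in the distal nephron, the last stretch of the kidney tubule. The kinases WNK1 and WNK4 phosphorylate SPAK (gene Stk39) and OSR1 (gene Oxsr1), which in turn phosphorylate and activate the sodium-chloride cotransporter of the distal convoluted tubule and the sodium-potassium-chloride cotransporter of the thick ascending limb. KLHL3 hands WNK kinases to the CUL3 ubiquitin ligase for breakdown. Aldosterone acts further along the tubule through the mineralocorticoid receptor (gene Nr3c2), and the enzyme HSD11B2 protects that receptor by inactivating glucocorticoids. Among the receptor's targets is Sgk1, a kinase that holds back the ubiquitin ligase NEDD4-2 (gene Nedd4l) and so keeps the epithelial sodium channel at the cell surface.

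Among the KO libraries, a pair stood apart from the rest. In the library labelled KO ZT4 A, Nr1d1, a direct target of BMAL1, was 23.8 TPM, against 1.24 to 3.46 TPM in the other 11 KO libraries and 22.0 and 33.0 TPM in WT at ZT4. Dbp, another such target, was 5.12 TPM there, against 2.30 to 4.20 TPM in the other 11 and 5.88 and 11.1 TPM in WT at ZT4. The Arntl level cannot check that label, since it was 4.19 to 6.28 TPM over the 12 KO libraries and 6.16 and 4.71 TPM in WT at ZT4. In the library labelled KO ZT12 A, the Y-linked gene Ddx3y was 0.0990 TPM, against 11.7 to 17.5 TPM in the other 23 libraries. Eif2s3y, also Y-linked, was 0.288 TPM, against 25.3 to 38.8 TPM. Of the other Y-linked genes listed, Uty was 0.655 TPM, against 5.85 to 7.68 TPM. Kdm5d fell less, to 2.27 TPM, against 3.74 to 5.42 TPM. Xist stayed under 1 TPM in every library, so the sex behind KO ZT12 A is unclear. Counts of genes called are given with these libraries and, where they moved, without both. Counts at a single time are left out where that leaves 1 KO library. Genes encoded by the mitochondrion held 40.5% ± 1.31 of TPM in WT and 37.6% ± 1.97 in KO (SD, n = 12 each), and a TPM difference carries that shift. The median of all genes tested was 0.15 higher in KO on the log2 scale, and it fell to 0.00 when libraries were rescaled by the median of ratios.

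In WT kidney the regulators covered a wide span of levels. Wnk1 led with 169 ± 18.9 TPM (SD, n = 12), and its lowest library, 139.7 TPM, was above the highest of Cul3, 93.0 TPM. Cul3, Wnk4, Hsd11b2 and Sgk1 followed in that order, with means of 85.9, 76.0, 65.3 and 36.8 TPM, and the ranges of neighbours in this order overlapped. Stk39 (13.2 TPM), Oxsr1 (9.66 TPM) and Nedd4l (8.89 TPM) came next. The ranges of Oxsr1 and Nedd4l overlapped. Klhl3 had 5.57 TPM, and Nr3c2 was the lowest of the 10 with 3.06 TPM, its range clear of that of Klhl3. For Wnk1 the gene sum is built largely from short partial transcript models, as described below, so its rank rests on how reads were divided among them.

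**Figure D1:**
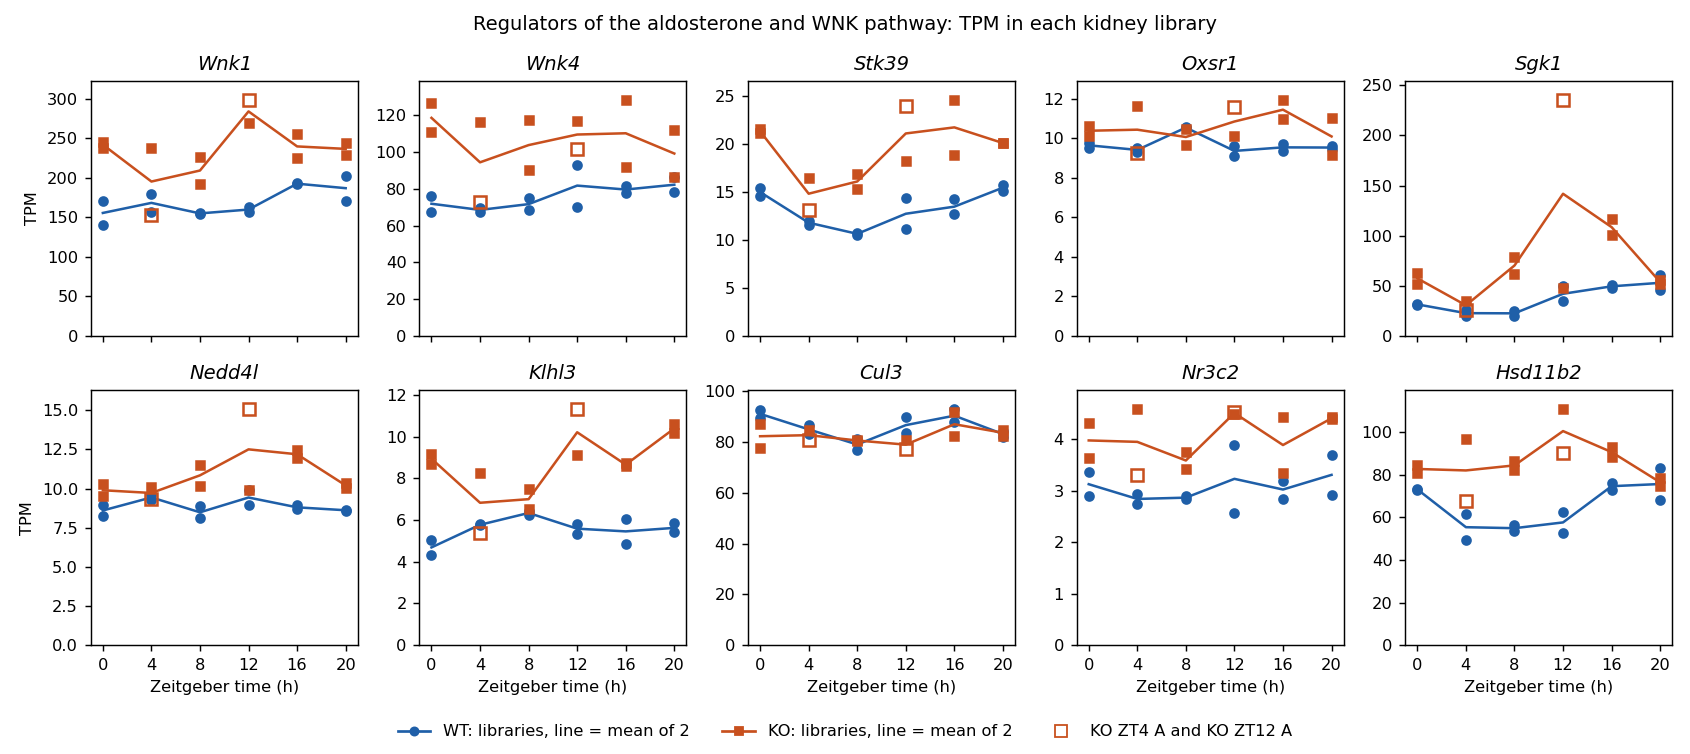
TPM of each regulator (y axis) in each kidney library by zeitgeber time (x axis, h), with WT as blue circles, KO as orange squares and lines through the mean of the 2 libraries. The open squares are KO ZT4 A, which lies at or near the WT points in most panels, and KO ZT12 A, which holds the highest Sgk1 value.

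KO kidneys held more transcript of nearly every regulator than WT kidneys. The genotype difference, taken over all times with limma on log2(TPM + 0.1), was above 0 and past an adjusted p of 0.05 for 9 of the 10 genes, and none was called lower. Over all genes tested, 50.9% were called higher and 10.0% lower, so being called higher was common. The median difference was 0.43 among the regulators and 0.15 among all genes, and 8 of the regulators lay above that median. With the median-of-ratios scaling, 8 regulators were called higher and 1, Cul3, lower, against 22.1% and 22.2% of all genes. Without both libraries that stood apart, 9 were again higher, beside 50.9% of genes. Of 18 markers of the distal tubule segments, 17 were called higher in KO as well, with a median of 0.57, and their part in the regulators' differences was not tested. In bulk RNA, more cells of a type and more RNA per cell cannot be told apart.

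**Figure D2:**
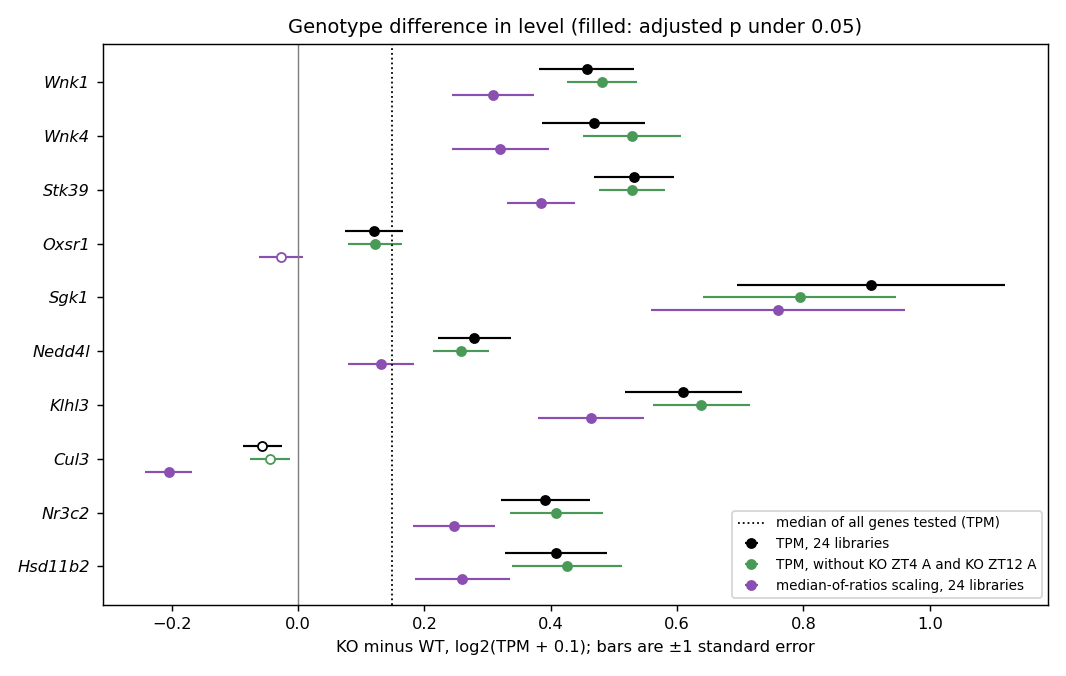
Genotype difference of each regulator (x axis, KO minus WT on log2(TPM + 0.1), bars ±1 SE) in all 24 libraries (black), without KO ZT4 A and KO ZT12 A (green) and with median-of-ratios scaling (purple), filled where the adjusted p was under 0.05. The rescaled values sit to the left of the others, which moves Oxsr1 across 0 and takes Cul3 past the threshold.

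The kinases at the head of the cascade were both higher in KO. Wnk1 (ENSMUSG00000045962, GRCm38 chr6:119923969-120038672, minus strand) ranged over 139.7 to 203 TPM (median 167) in the 12 WT libraries and 153 to 298 TPM (median 238) in the 12 KO libraries. Only KO ZT4 A and KO ZT8 A lay inside the WT range, and 10 KO libraries were above its top. The means were 169 ± 18.9 TPM in WT and 234 ± 36.4 TPM in KO (SD, n = 12 each), a log2 difference of 0.46 (SE 0.07, adjusted p = 4.3e-05). Wnk4 (ENSMUSG00000035112, chr11:101260567-101277409, plus strand) spanned 67.5 to 93.2 TPM (median 75.6) in WT and 72.6 to 128 TPM (median 111) in KO, with 8 KO libraries above the WT top. Its difference was 0.47 (SE 0.08, adjusted p = 7.7e-05). At each of the 6 times both Wnk4 KO libraries were above both WT libraries, at ZT20 by only 86.6 against 86.4 TPM. How many of all genes separated in this way was not counted.

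Wnk1 makes transcripts from more than 1 start. The long form begins at exon 1 and encodes the kinase domain, while the form known to be kidney-specific begins inside intron 4 and lacks most of that domain. Among the annotated models, Wnk1-202 (ENSMUST00000060043) starts at exon 1. Wnk1-201 (ENSMUST00000035513), a processed transcript of 4 exons, has its exon 1 at chr6:119981118-119981448, between exon 4 (chr6:119990092-119990249) and exon 5 (chr6:119972768-119972856) of the longest coding model, and goes on into exons 5, 6 and the start of exon 7. The sequence around each start is shown because the transcript values below turn on them. Both windows run from 250 bases before the start to 50 bases after it, on the minus strand and 5′ to 3′. The exon 1 window is chr6:120038606-120038905 in RefSeq's promoter table (GRCm38.p6). The intron 4 window is chr6:119981399-119981698, read from the same build around the Wnk1-201 start.
Wnk1 exon 1 start: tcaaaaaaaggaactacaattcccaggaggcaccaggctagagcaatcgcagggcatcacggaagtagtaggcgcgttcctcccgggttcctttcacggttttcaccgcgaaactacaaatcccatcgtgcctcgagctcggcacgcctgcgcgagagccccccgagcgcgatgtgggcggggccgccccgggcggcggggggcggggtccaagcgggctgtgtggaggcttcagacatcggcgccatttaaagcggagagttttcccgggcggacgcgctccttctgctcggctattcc
Wnk1-201 start in intron 4: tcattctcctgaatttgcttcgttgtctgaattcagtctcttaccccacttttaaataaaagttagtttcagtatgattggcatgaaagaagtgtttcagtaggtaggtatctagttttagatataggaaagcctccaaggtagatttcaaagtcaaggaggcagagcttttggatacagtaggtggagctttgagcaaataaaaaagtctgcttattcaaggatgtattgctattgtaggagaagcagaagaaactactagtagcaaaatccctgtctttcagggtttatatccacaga
The exon 1 window has a G and C content of 63.7% with 32 CG dinucleotides, and the intron 4 window 37.3% with 1 CG dinucleotide.

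Wnk1-201 and Wnk1-202, 1 model from each start, were called higher in KO. Wnk1-201 spanned 6.65 to 12.1 TPM in WT (median 9.78) and 8.29 to 22.1 TPM in KO (median 15.1), with overlapping ranges. The transcript-level difference was 0.52 (SE 0.14, adjusted p = 0.0054). For the exon 1 form Wnk1-202 the WT range was 8.11 to 12.1 TPM and the KO range 7.31 to 15.7 TPM, a difference of 0.34 (SE 0.10, adjusted p = 0.012). Wnk1-204, which also holds exon 1, had means of 4.86 TPM in WT and 6.11 TPM in KO and was not called. Among the 24 fits that left out a library, it passed only without KO ZT8 A. Without KO ZT4 A and KO ZT12 A its difference was 0.20 (SE 0.11, limma adjusted p = 0.16). Over all Wnk1 models with a mean of at least 1 TPM, 9 of 14 were called higher and none lower, where 31.7% of the 26725 transcripts tested were called higher and 7.08% lower. The log2 differences of these 9 ran from 0.34 to 1.22, and 9 were called higher without KO ZT4 A and KO ZT12 A as well. The 4 models that hold exon 1 made up only 8.69% of the Wnk1 TPM in WT and 8.06% in KO. The model with the largest share, Wnk1-208, is a retained-intron fragment at the 3′ end (48.0 TPM in WT, 67.8 TPM in KO). One Wnk1 model, Wnk1-207, was called rhythmic in WT and none in KO, where 6.86% and 1.2% of transcripts were, and none passed the rhythm difference (0.266% of transcripts). At an unadjusted p under 0.05, limma gave 1 Wnk1 model for KO rhythm and 0 for the difference, beside 14.2% and 9.92% of transcripts. The Wnk1-207 call was lost in 8 of the 24 fits that left out a library. Kallisto divides reads among models that share exons, so these shares are estimates.

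The balance between starts was compared as 1 value per library. The log2 ratio of the summed coding models that begin downstream of exon 4 (9 models) to those that hold exon 1 (4 models) was 2.25 ± 0.13 in WT and 2.34 ± 0.15 in KO (SD, n = 12 each). The difference of 0.0878 did not pass an exact two-sided permutation test with genotype labels permuted within each time (p = 0.18, 46656 arrangements). It passed without WT ZT20 A (0.111, exact permutation p = 0.047) and with non-coding models included (0.123, exact permutation p = 0.022). Most of the coding models that begin downstream are 3′ fragments rather than the intron 4 form, which the annotation lists as non-coding. Set against the exon 1 models, Wnk1-201 alone had a log2 ratio of -0.56 ± 0.15 in WT and -0.38 ± 0.12 in KO (SD, n = 12 each). That difference of 0.176 had an exact permutation p of 0.00832, in a comparison chosen after the data were seen, and the ranges of the genotypes overlapped.

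**Figure D3:**
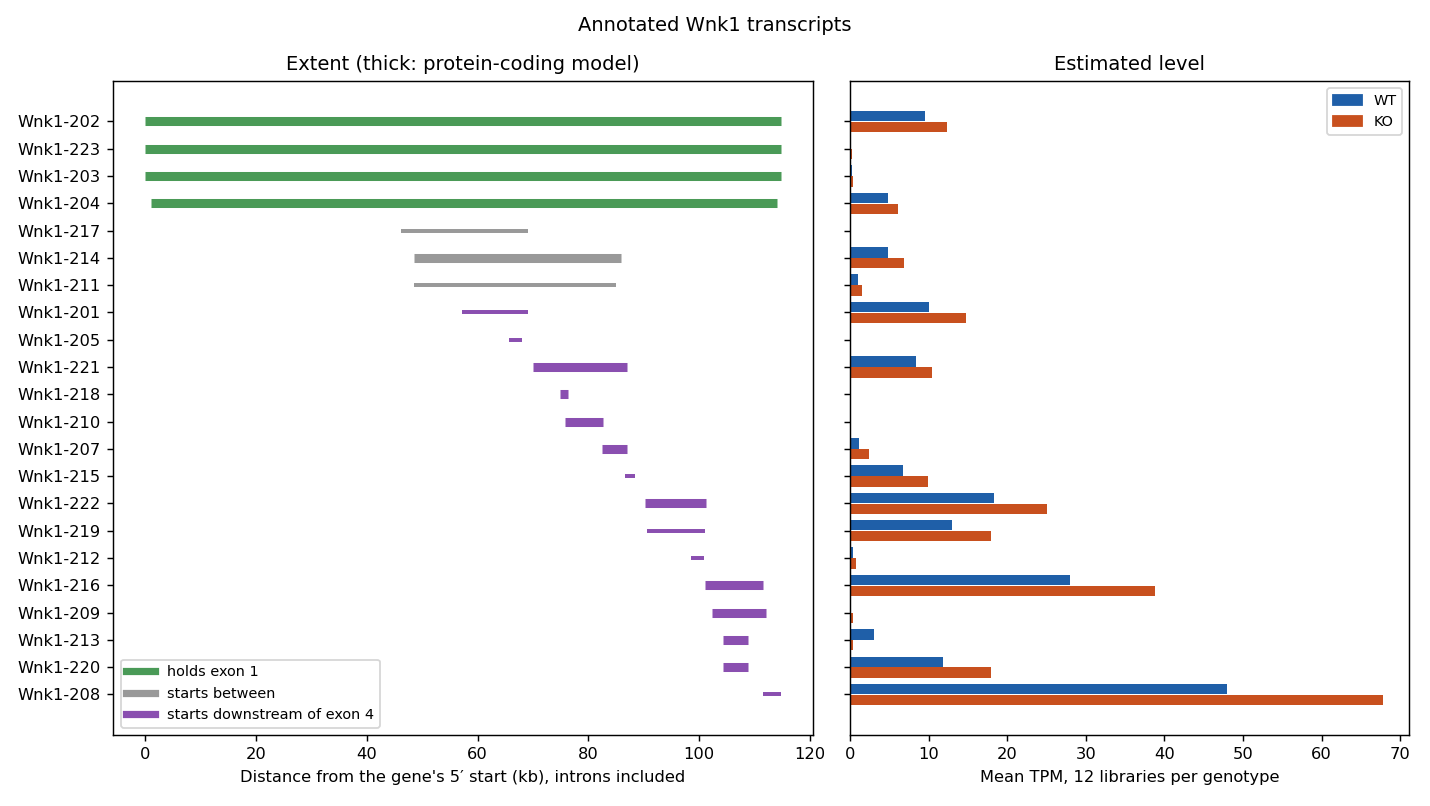
Extent of each annotated Wnk1 transcript (left, kb from the 5′ end of the gene, introns included, thick where the model is protein-coding) and its mean TPM over 12 libraries per genotype (right, WT blue, KO orange). The models holding exon 1 are green, and most of the TPM falls on short models toward the 3′ end.

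Of the kinases that WNKs activate, Stk39 rose in KO, and Oxsr1 rose slightly in TPM but turned in sign with median-of-ratios scaling. Stk39 (ENSMUSG00000027030, chr2:68210445-68472268, minus strand) ranged over 10.6 to 15.8 TPM (median 13.5) in WT and 13.2 to 24.6 TPM (median 19.5) in KO. Of the 12 KO libraries, 10 were above the WT top. Its difference was 0.53 (SE 0.06, adjusted p = 1.7e-06), and both KO libraries were above both WT libraries at all 6 times (not counted over all genes). Oxsr1 (ENSMUSG00000036737, chr9:119238432-119322427, minus strand) had 9.09 to 10.6 TPM (median 9.56) in WT and 9.14 to 11.9 TPM (median 10.5) in KO, ranges that overlapped. Its difference of 0.12 (SE 0.05, adjusted p = 0.029) was below the median of all genes. The call was lost when any of 6 libraries was left out (WT ZT12 A, WT ZT16 A, KO ZT4 B, KO ZT12 A, KO ZT16 A or KO ZT20 B, adjusted p up to 0.0576). The difference was 0.06 (SE 0.05, adjusted p = 0.33) when libraries were rescaled without mitochondrial genes, and -0.03 (SE 0.03, adjusted p = 0.55) with median-of-ratios scaling.

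The ligase that removes WNK kinases showed a split between its parts. Klhl3 (ENSMUSG00000014164, chr13:58000228-58113592, minus strand), the adaptor, ranged over 4.32 to 6.42 TPM (median 5.77) in WT and 5.38 to 11.3 TPM (median 8.71) in KO. The only KO library inside the WT range was KO ZT4 A, at 5.38 TPM. With all 24 libraries no regulator had groups free of overlap, against 1.42% of genes with KO higher. Without KO ZT4 A the Klhl3 groups did not overlap, which held for 8.34% of genes and for no other regulator. The difference was 0.61 (SE 0.09, adjusted p = 1.9e-05), and 0.67 (SE 0.08, adjusted p = 8.4e-07) without KO ZT4 A. Cul3 (ENSMUSG00000004364, chr1:80264923-80340480, minus strand), the scaffold of many ubiquitin ligases, had 76.8 to 93.0 TPM (median 85.6) in WT and 77.1 to 91.7 TPM (median 81.6) in KO. Its difference of -0.06 (SE 0.03, adjusted p = 0.12) did not pass the test, but it was -0.12 (SE 0.03, adjusted p = 0.0024) when libraries were rescaled without mitochondrial genes and -0.21 (SE 0.04, adjusted p = 1.6e-04) with median-of-ratios scaling.

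Sgk1 had the largest difference of the 10 and the largest spread. Sgk1 (ENSMUSG00000019970, chr10:21882184-21999903, plus strand) encodes the aldosterone- and glucocorticoid-induced kinase. In WT its TPM was 30.5 and 32.3 at ZT0, 25.3 and 20.01 at ZT4, 19.8 and 25.2 at ZT8, 49.4 and 34.6 at ZT12, 50.9 and 48.0 at ZT16 and 45.4 and 60.6 at ZT20. In KO it was 63.0 and 51.8 at ZT0, 25.9 and 35.1 at ZT4, 78.4 and 62.0 at ZT8, 236 and 48.1 at ZT12, 101 and 116 at ZT16 and 56.0 and 51.4 at ZT20. The WT pairs were lowest at ZT4 and ZT8 and highest at ZT16 and ZT20, and both KO libraries were above both WT libraries at ZT0, ZT4, ZT8 and ZT16 but not at ZT12 or ZT20. The 2 KO libraries at ZT12 differed 4.89-fold, the widest pair of any regulator. The genotype difference was 0.91 (SE 0.21, adjusted p = 0.0013), and 0.79 (SE 0.15, adjusted p = 2.9e-04) without KO ZT4 A and KO ZT12 A. Of the 10 listed genes known to be induced by corticosteroids, 7 had their highest KO value in KO ZT12 A, Klf9 and Elf3 had rank 3 of the 12 there, and Edn1 was below the KO median. Tsc22d3 was 79.2 TPM against 10.4 to 44.6 TPM in the other 11 KO libraries. Their part in the Sgk1 value was not tested.

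Promoter windows of 300 bases (250 before the start, 50 after) were found in RefSeq's table (GRCm38.p6) for 8 of the 10 regulators, 13 windows in all. Hsd11b2 and Nedd4l had none there. These windows were searched on both strands for the E-box CACGTG bound by BMAL1 and CLOCK, the D-box forms TTATGTAA and TTACGTAA, the ROR element (AANT followed at once by NGGTCA) and the steroid receptor element (AGAACA and TGTTCT with 3 free bases between them). The only matches lay in 1 of the 6 Sgk1 windows, chr10:21993640-21993939 on the plus strand. It is shown with its matches in capitals, the E-box first and the receptor element after it, with no overlap between them.
Sgk1 window: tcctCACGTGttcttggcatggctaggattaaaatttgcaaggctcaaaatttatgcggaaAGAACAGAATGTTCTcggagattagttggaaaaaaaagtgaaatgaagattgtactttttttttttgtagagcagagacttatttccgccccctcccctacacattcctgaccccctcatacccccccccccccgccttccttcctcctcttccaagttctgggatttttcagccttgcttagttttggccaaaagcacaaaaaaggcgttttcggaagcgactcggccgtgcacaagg
The E-box is at chr10:21993644-21993649 and the receptor element at chr10:21993701-21993715. The window belongs to Sgk1-202, and the receptor element ends 175 bases before that start and 951 bases before the start of Sgk1-201, the main transcript here. Over 32851 mouse promoter windows of this length, 7.15% held CACGTG and 0.00913% (3 windows) held the receptor element. The other motifs were in 0.938% (TTATGTAA), 0.119% (TTACGTAA) and 0.606% (the ROR element) of windows. A match is a run of letters and does not show binding.

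Nedd4l, whose protein SGK1 holds back, was moderately higher in KO. Nedd4l (ENSMUSG00000024589, chr18:64887705-65217828, plus strand) ranged over 8.11 to 9.91 TPM (median 8.89) in WT and 9.31 to 15.1 TPM (median 10.2) in KO. Of the 12 KO libraries, 10 were above the WT top. The difference was 0.28 (SE 0.06, adjusted p = 4.2e-04), and 0.13 (SE 0.05, adjusted p = 0.047) with median-of-ratios scaling. Its highest KO value, 15.1 TPM, was again in KO ZT12 A.

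Both genes of the aldosterone response at the receptor were higher in KO. Nr3c2 (ENSMUSG00000031618, chr8:76899442-77245012, plus strand), the receptor, had 2.57 to 3.89 TPM (median 2.90) in WT and 3.31 to 4.58 TPM (median 4.35) in KO, with 7 KO libraries above the WT top. The difference was 0.39 (SE 0.07, adjusted p = 1.1e-04), and both KO libraries were above both WT libraries at all 6 times (not counted over all genes). Hsd11b2 (ENSMUSG00000031891, chr8:105518755-105523988, plus strand), which guards the receptor, spanned 49.2 to 83.1 TPM (median 65.6) in WT and 67.6 to 111 TPM (median 85.6) in KO. Of the 12 KO libraries, 7 were above the WT top. The difference was 0.41 (SE 0.08, adjusted p = 2.8e-04).

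At single times, with 2 libraries a group, the regulators called depended on the hour. In TPM the calls were in the direction of higher KO throughout. At ZT0, 4 regulators passed (Wnk1, Wnk4, Stk39 and Klhl3), where 10.7% of all genes were called higher. At ZT8 there were 3 (Stk39, Sgk1 and Hsd11b2, against 11.1% of genes), at ZT12 there were 6 (Wnk1, Stk39, Sgk1, Nedd4l, Klhl3 and Hsd11b2, against 31.9%), and at ZT16 there were 3 (Stk39, Nedd4l and Klhl3, against 17.0%). Only Klhl3 passed at ZT20, where the share was 2.39%. At ZT4 no gene at all was called by limma, and among the regulators Hsd11b2 and Nr3c2 had an unadjusted p under 0.05, beside 12.7% of genes. Without KO ZT4 A, KO at ZT4 is the single library KO ZT4 B, so no calls are given for it. Without both libraries that stood apart, KO at ZT12 is 1 library as well, and no calls are given for ZT4 or ZT12. In that fit 5 regulators were called higher at ZT0 (Sgk1 joined, against 17.5% of genes) and 5 at ZT8 (Wnk1 and Nedd4l joined, 16%). At ZT16 there were then 5 (Oxsr1 and Sgk1 joined, against 22.8%) and at ZT20 1 (7.15%). With median-of-ratios scaling of all 24 libraries, 2 regulators were called higher and 1 lower at ZT0, beside 564 and 604 of 12874 genes. At ZT12 that scaling gave 4 higher and 1 lower, beside 1446 and 1683 genes. None was then lower at the other times, and 3 were higher at ZT8, 2 at ZT16 and 1 at ZT20, beside 887, 925 and 238 genes.

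The differences at ZT12 carried the firmest calls. Wnk1 differed by 0.83 (SE 0.16, adjusted p = 0.0018), Stk39 by 0.72 (SE 0.15, adjusted p = 0.0028), Klhl3 by 0.85 (SE 0.16, adjusted p = 0.0017) and Hsd11b2 by 0.80 (SE 0.15, adjusted p = 0.0016). These 4 passed whichever single library was left out. The ZT12 calls of Sgk1 and Nedd4l were each lost in 17 of the 24 fits that left out a library, KO ZT12 A among them. Sgk1 went from 1.36 (SE 0.49, adjusted p = 0.042) to 0.22 without KO ZT4 A and KO ZT12 A, which leaves 1 KO library at ZT12. Nedd4l went from 0.37 (SE 0.14, adjusted p = 0.043) to 0.08 in the same fit. Each call at ZT0, ZT8, ZT16 and ZT20 was lost when at least 1 library of that time was left out, and the ZT8 call of Sgk1 in 15 of the 24 fits. Sgk1 differed most at ZT8, by 1.64 (SE 0.49, adjusted p = 0.04), and least at ZT20, by 0.03 (SE 0.49, adjusted p = 0.98). Hsd11b2 ran from 0.80 (SE 0.15, adjusted p = 0.0016) at ZT12 to 0.02 (SE 0.15, adjusted p = 0.96) at ZT20.

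**Figure D4:**
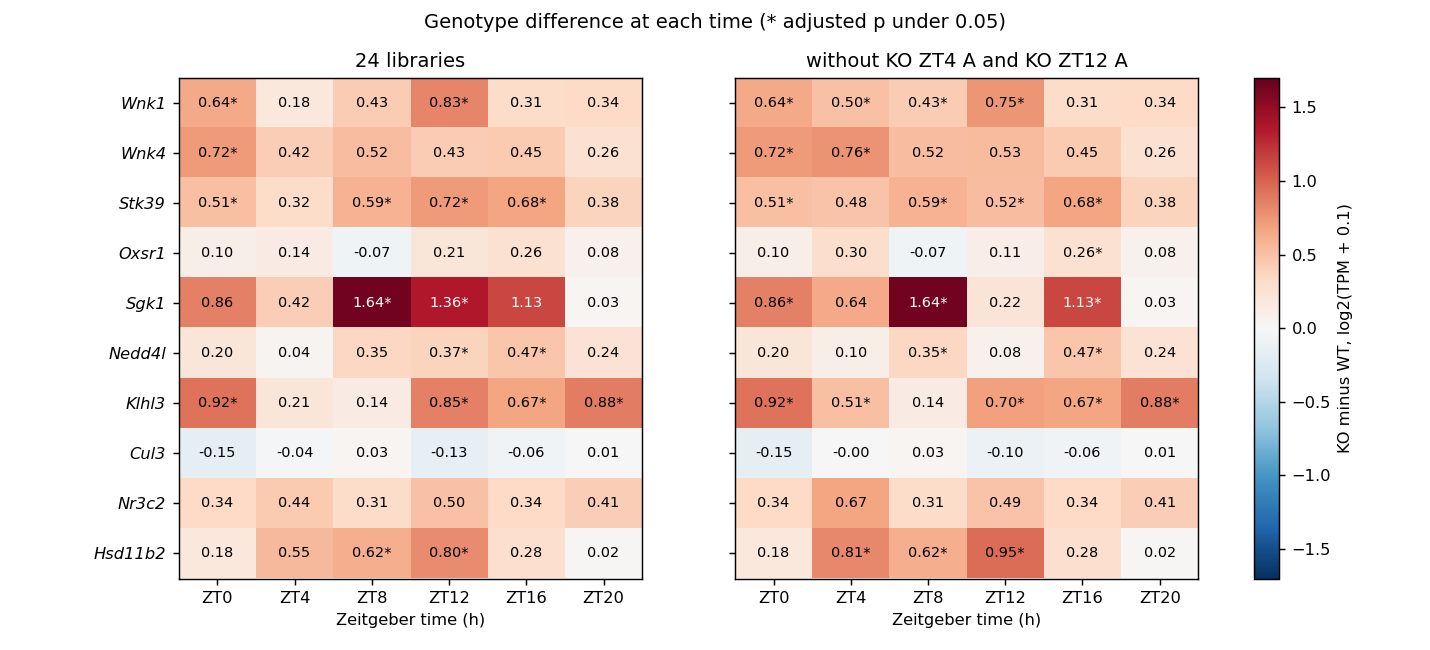
KO minus WT difference on log2(TPM + 0.1) for each regulator (rows) at each zeitgeber time (columns, h), from all 24 libraries (left) and without KO ZT4 A and KO ZT12 A (right), with an asterisk where the adjusted p was under 0.05. The Sgk1 value at ZT12 drops from 1.36 to 0.22 between the panels. In the right panel KO is 1 library at ZT4 and 1 at ZT12, so asterisks in those columns rest on no KO replicate.

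Daily rhythm was fitted as a 24-hour cosine per genotype. In WT, Hsd11b2 and Stk39 were rhythmic, 2 of the 10, where 13.7% of genes passed. The TPM of Hsd11b2 in WT was 73.3 and 73.1 at ZT0, 61.7 and 49.2 at ZT4, 53.5 and 56.4 at ZT8, 62.8 and 52.6 at ZT12, 76.3 and 73.1 at ZT16 and 83.1 and 68.4 at ZT20. It was low from ZT4 to ZT12 and high from ZT16 to ZT0. Its peak-to-trough difference on the log2 scale was 0.57 (SE 0.12), with a fitted peak at 19.7 h (SE 0.80 h) and an adjusted p of 0.009. Stk39 had a WT peak-to-trough of 0.50 (SE 0.13) and a peak at 20.3 h (SE 1.01 h, adjusted p = 0.0375). The Stk39 call was lost when any of 10 of the 12 WT libraries was left out (all but WT ZT12 B and WT ZT16 A), with an adjusted p of up to 0.10, and the Hsd11b2 call was not lost for any library. In an alternative fit with a free mean for each of the 6 times, neither passed (adjusted p = 0.11 for Hsd11b2 and 0.17 for Stk39).

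Sgk1 had the widest daily swing of the 10, and its WT rhythm lay just outside the threshold. In WT its peak-to-trough was 1.38 (SE 0.39) with a peak at 17.4 h (adjusted p = 0.0515). The spread of a gene is shared between genotypes in this model, and the WT adjusted p was 0.0384 without KO ZT4 A and 0.0048 without KO ZT4 A and KO ZT12 A. With all 24 libraries it passed with median-of-ratios scaling (adjusted p = 0.0304), a mean of at least 5 TPM (0.0456) and limma without the trend and robust options (0.0484), and in a fit of WT alone (0.0011). In KO none of the 10 was called rhythmic by limma, where 3.64% of genes were. At an unadjusted p under 0.05 there were 4 (Stk39, Sgk1, Nedd4l and Klhl3), beside 21.1% of genes. The KO swing of Sgk1 was 1.58 (SE 0.39) with a peak at 14.2 h (adjusted p = 0.0546), and 0.90 (SE 0.31) with an adjusted p of 0.17 without both libraries. With median-of-ratios scaling 2 regulators, Stk39 and Sgk1, were called in KO, beside 4.55% of genes (adjusted p = 0.0343 and 0.0390).

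No rhythm difference between genotypes passed among the 10, where 0.629% of genes did. At an unadjusted p under 0.05 there were 2, Hsd11b2 and Klhl3, beside 13.7% of genes. Hsd11b2 came nearest, with an adjusted p of 0.0964, 0.0444 without KO ZT4 A (when 0.87% of genes passed) and 0.0562 without both libraries. In KO its TPM was 84.6 and 81.0 at ZT0, 67.6 and 96.7 at ZT4, 86.5 and 82.4 at ZT8, 90.3 and 111 at ZT12, 92.9 and 88.6 at ZT16 and 74.7 and 78.4 at ZT20. Both KO values at ZT12 were above every WT library, the KO values at ZT8 lay in the middle of the KO range, and at ZT20 the genotypes overlapped. Klhl3 had a WT peak-to-trough of 0.25 (SE 0.16) and a KO peak-to-trough of 0.54 (SE 0.16), and its difference had an adjusted p of 0.253. For Sgk1 the adjusted p of the difference was 0.481, so neither its swing nor its peak time was shown to differ between genotypes.

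Patterns over the 12 group means of log2(TPM + 0.1) were compared with those of the other 12873 genes as a description, since the means share genotype and time. Closest to Stk39 were Kcnj1 (Pearson r = 0.984), Capn2 (0.982) and Isyna1 (0.980). Kcnj1 encodes the apical potassium channel of the thick ascending limb and collecting duct. Sgk1 was closest to Arl4d (Pearson r = 0.945), Kank3 (0.932) and Chst1 (0.927), and Hsd11b2 to Klhl18 (Pearson r = 0.968), Sec24b (0.961) and Slc22a13 (0.959).

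The transporters and channels these regulators act on were mostly higher in KO too. Of 15 transport targets listed, 12 of 14 tested genes were called higher and 1 lower in KO, with a median difference of 0.46, beside 50.9% and 0.15 for all genes. Scnn1b, the beta subunit of the epithelial sodium channel, went from 14.7 ± 1.26 to 27.4 ± 5.17 TPM (SD, n = 12 each), a difference of 0.87 (SE 0.08, adjusted p = 2.3e-07). Slc12a1, the sodium-potassium-chloride cotransporter, differed by 0.72 (SE 0.08, adjusted p = 5.2e-07), Kcnj1 by 0.76 (SE 0.07, adjusted p = 3.9e-07) and Bsnd, a chloride channel subunit, by 0.48 (SE 0.05, adjusted p = 5.1e-07). Slc12a2, a cotransporter of basolateral membranes, was the gene called lower, at -0.19 (SE 0.06, adjusted p = 0.0089), and Kcnma1 was under the filter. With median-of-ratios scaling 10 of 14 tested genes were called higher and 1 lower, beside 22.1% and 22.2% of all genes. Without KO ZT4 A and KO ZT12 A 12 of 14 tested genes were called higher, beside 50.9% of all genes, and 1 lower. In WT, Kcnj1, Scnn1a, Bsnd and Kcnj10 were rhythmic (4 of 14, beside 13.7% of genes), with fitted peaks at 20.4, 18.2, 22.1 and 19.6 h. There were 6, with Scnn1g and Atp1b1, without KO ZT4 A (beside 16.6% of genes), without both libraries (19.9%) and with median-of-ratios scaling (15.4%). None of the 14 passed the rhythm difference test by limma with or without both libraries. At an unadjusted p under 0.05 there was 1, Slc26a4, beside 13.7% of genes. Without both libraries there were 2, Slc26a4 and Atp1b1, beside 1823 of 12874 genes.

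The paralogs and partners of the regulators moved both ways in TPM, and more were called lower than higher with median-of-ratios scaling. Of 21 listed, 9 of 19 tested genes were called higher and 6 lower, beside 50.9% and 10.0% of all genes. Their median was 0.08, beside 0.15 for all genes. With median-of-ratios scaling 2 of 19 tested genes were called higher and 9 lower, beside 22.1% and 22.2% of all genes. The largest change was in Hsd11b1, which regenerates active glucocorticoid and so works opposite to HSD11B2. It ranged over 76.5 to 203 TPM (median 105) in WT and 16.9 to 102 TPM (median 21.1) in KO, a difference of -2.09 (SE 0.22, adjusted p = 7.4e-07). The top KO value was KO ZT4 A, and the other 11 KO libraries were at or below 38.0 TPM, under every WT library. Mtor, the kinase of the complex that activates SGK1, was lower, at -0.79 (SE 0.10, adjusted p = 3.0e-06). It was the 1 partner with a rhythm difference (adjusted p = 0.0298), where 0.629% of genes had one. Without KO ZT4 A and KO ZT12 A no partner had one by limma (adjusted p = 0.0566 for Mtor). With and without these libraries 4 had an unadjusted p under 0.05, beside 13.7% of genes with them and 1823 of 12874 genes without. Klhl2, a close relative of Klhl3, was lower, at -0.31 (SE 0.04, adjusted p = 9.2e-06), and Cab39l, a cofactor of SPAK and OSR1, was higher, at 0.34 (SE 0.05, adjusted p = 5.0e-06). Wnk2 and Wnk3 were under the filter.

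Genes known to be induced by corticosteroids moved both ways, with TPM counts near the shares of all genes. Of the 10 listed, 4 of 10 tested genes were called higher and 1 lower, beside 50.9% and 10.0% of all genes. Their median was 0.15, as it was for all genes. With median-of-ratios scaling 3 of 10 tested genes were called higher and 4 lower, beside 22.1% and 22.2% of all genes. Cnksr3, a scaffold for sodium channel control, differed by 0.35 (SE 0.05, adjusted p = 2.0e-05), Elf3, an epithelial transcription factor, by 0.56 (SE 0.10, adjusted p = 6.9e-05) and Edn1, the endothelin precursor, by 0.70 (SE 0.13, adjusted p = 1.4e-04). Fkbp5, a glucocorticoid receptor co-chaperone, differed by -0.68 (SE 0.17, adjusted p = 0.0025). Per1, Tsc22d3 and Usp2 were rhythmic in WT (3 of 10, beside 13.7% of genes). Tsc22d3 peaked at 16.8 h with a peak-to-trough of 2.11 (SE 0.39), near the Sgk1 peak of 17.4 h. None of the 10 passed the rhythm difference test by limma, and none had an unadjusted p under 0.05, beside 0.629% and 13.7% of genes. Without KO ZT4 A and KO ZT12 A, 4 were rhythmic in WT (Edn1 joined), beside 19.9% of genes. Then 2 were called lower (Ndrg2 joined, at -0.17 (SE 0.06, adjusted p = 0.03)), beside 1331 of 12874 genes. None passed the rhythm difference test then, and 2, Tsc22d3 and Usp2, had an unadjusted p under 0.05, beside 1823 of 12874 genes.

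Markers of the tubule segments in which these regulators act moved with them. Of 18 markers of the thick ascending limb, distal convoluted tubule, connecting tubule, principal cells and intercalated cells, the 1 called lower was Umod, the gene of uromodulin, at -0.36 (SE 0.07, adjusted p = 3.5e-04). Slc12a1 and Slc12a3 stand in this list and among the transport targets. The summed TPM of the 3 distal convoluted tubule markers was 169 to 234 TPM over WT libraries and 176 to 320.4 TPM over KO libraries. The 4 principal cell markers summed to 146 to 264 TPM in WT and 195 to 469 TPM in KO, and the 3 connecting tubule markers to 76.8 to 151 TPM and 118 to 249.9 TPM. The 4 thick ascending limb markers, dominated by Umod, summed to 1308 to 1900.4 TPM and 1352 to 1604 TPM, and the 4 intercalated cell markers to 36.0 to 57.7 TPM and 51.4 to 86.0 TPM.

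Markers of other cells differed less evenly, where 50.9% of all genes were called higher and 10.0% lower. Of the 6 proximal tubule markers, 1 was called higher and 2 lower (median 0.02), with summed TPM of 2112 to 2490.4 TPM in WT and 2019.9 to 2657 TPM in KO, which places the tissue as kidney in every library. All 3 podocyte markers were called higher (50.1 to 70.9 TPM in WT, 68.3 to 99.4 TPM in KO). Of the 3 endothelial markers, 2 were called higher (29.7 to 42.2 TPM and 29.2 to 55.6 TPM), and of the 4 leukocyte markers none was higher and 1 lower (137 to 290.4 TPM and 102 to 187 TPM). The adrenal cortex markers summed to 0.726 to 1.09 TPM and 0.840 to 1.46 TPM, and Cyp11b1, Cyp11b2, Cyp11a1 and Hsd3b1, 4 of its 5 genes, stayed under 1 TPM in every library. The adipocyte markers summed to 0.119 to 26.7 TPM and 0.0618 to 29.5 TPM, a wide spread in both genotypes, and none was called.

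**Figure D5:**
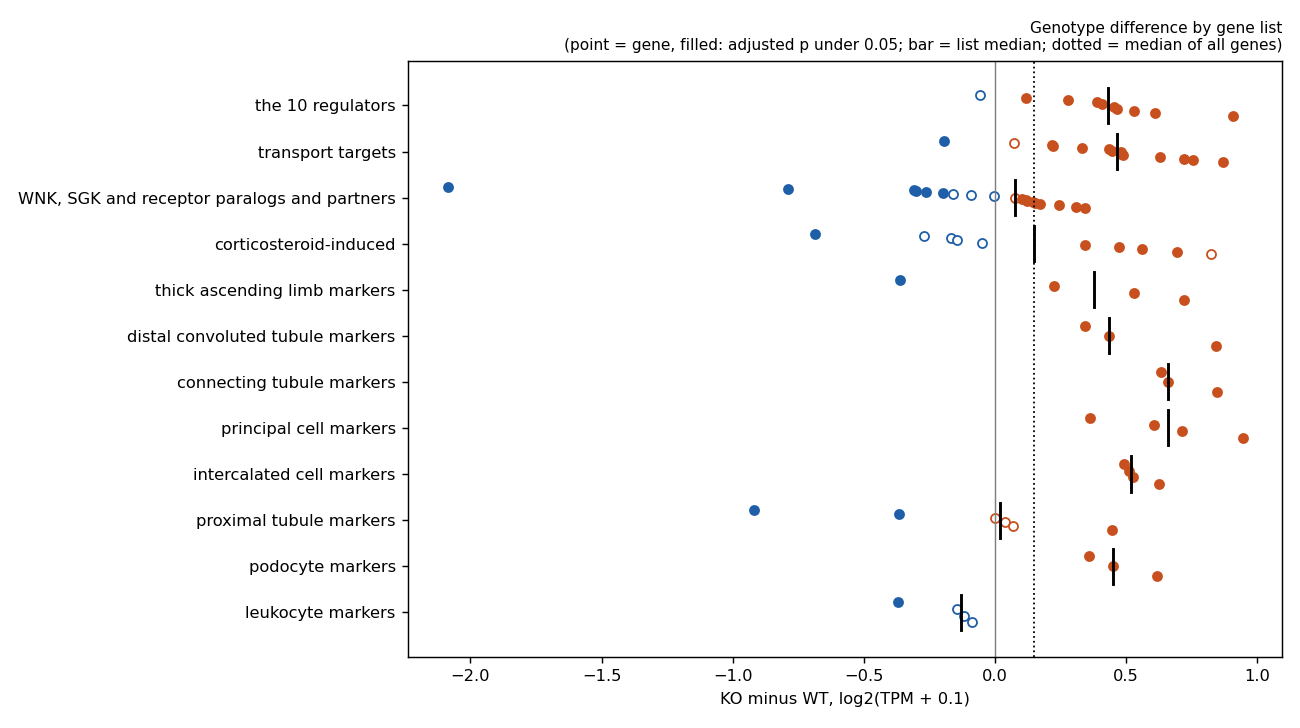
Genotype difference of each gene (point, x axis, KO minus WT on log2(TPM + 0.1)) by list (rows), filled where the adjusted p was under 0.05, with the list median as a bar and the median of all genes as a dotted line. The regulators, the transport targets and the distal segment markers lie mostly to the right of the dotted line, while partners and proximal tubule markers fall on both sides.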

How the data were processed

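PolyA-selected kidney RNA was measured in 24 libraries, 12 per genotype, and grouped by the labels alone. The authors deposited TPM per transcript, made with kallisto 0.42.4 on GRCm38 (mm10) per the submitters' processing notes; the transcript release is not given in the sources used here. Library totals were 999999 to 1000001 TPM, so depth is unknown. Transcripts were summed to genes through GENCODE M21 by identifier without version. Of 88198 transcripts, 86119 matched, and the rest held 1.35% to 2.24% of TPM.

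limma 3.58.1 in R 4.3.3 (lmFit, eBayes with trend and robust options) was fitted to log2(TPM + 0.1), with Benjamini-Hochberg adjustment over all 12874 genes or 26725 transcripts of mean at least 1 TPM. Fold changes of low genes are understated on this scale. The genotype term had time as a 6-level factor. Single times were contrasts of 12 group means, and rhythm was a cosine and sine per genotype. All 10 regulators were named, with up to 4 genes of the smallest p per list and test, and the 3 genes most correlated with each rhythmic regulator and Sgk1. Umod and Slc12a2 were named after their values were seen, as the single genes called lower in their lists. Cry1, Eif2s3y, Uty and Kdm5d were likewise named after their values were seen, as label checks. The regulators and gene lists were chosen with earlier results of these data known. The tests were checked on simulated data. The 4C-seq libraries were not used here, and the planned protein comparison was not made here.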

Additional observations from a re-analysis of the deposited data

Results flagged for a closer look

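The small Oxsr1 differences took opposite signs at different times, and none was called at a single time with all 24 libraries. The 2 KO and the 2 WT libraries did not overlap at the times given here. How many of all genes separated in this way was not counted. On log2(TPM + 0.1), KO minus WT was 0.10 at ZT0, 0.21 at ZT12 and 0.26 at ZT16, with both KO libraries above both WT libraries, and -0.067 at ZT8, with both KO libraries below both WT libraries. At ZT8 the WT libraries had 10.6 and 10.5 TPM and the KO libraries 10.4 and 9.67 TPM. This change of sign was not tested as a contrast of times. The cosine test of a rhythm difference gave an unadjusted p of 0.429 (adjusted p = 0.741, limma).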

How the results depend on the processing

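The genotype differences kept their direction and their side of the threshold under most settings. Cul3 passed, as lower, with median-of-ratios scaling and rescaled without mitochondrial genes, and Oxsr1 passed with neither. The exception in direction was Oxsr1, at -0.027 with median-of-ratios scaling. Counts of regulators called moved as follows. Without a filter, 2 passed at ZT0 and 1 for WT rhythm. With a mean of at least 5 TPM, 1 passed for KO rhythm, and with median-of-ratios scaling 2 did. That scaling also gave 1 regulator called lower at ZT0 and 1 at ZT12. Rescaled without mitochondrial genes, 1 passed at ZT8, 1 for WT rhythm and 1 for KO rhythm. With time as a 6-level factor, 0 passed for WT rhythm. Without KO ZT4 A and KO ZT12 A, 5 passed at ZT8 and 5 at ZT16. With a pseudocount of 1 or without a filter, 0 Wnk1 transcripts were rhythmic in WT.

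Counts over all genes also moved. A pseudocount of 1 gave 1 gene at ZT4. Without a filter there were 12 at ZT4, 242 at ZT20, 295 for KO rhythm and 43 for the rhythm difference, and over transcripts 1158 for WT rhythm and 115 for KO rhythm. Median-of-ratios scaling gave 3129 at ZT12. Time as a factor gave 576 for WT rhythm, 28 for KO rhythm and 23 for the difference. A fit of WT alone gave 2816, and of KO alone 12. Without both libraries there were 2725 at ZT0, 1894 at ZT4, 2882 at ZT12 and 1243 at ZT20. The Wnk1 start-site ratio rose to 0.123 with all models and 0.176 with Wnk1-201 alone. The omission of both libraries and the ratio with Wnk1-201 alone were chosen after seeing the data. Apart from settings that test fewer genes or fewer libraries, the cause was not tested.

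Leaving out each library in turn gave ranges, and each such fit left 1 library in the group it was taken from. Regulators called ran from 0 to 5 at ZT0, 0 to 4 at ZT4, 0 to 4 at ZT8, 0 to 4 at ZT16, 0 to 1 at ZT20, 1 to 3 for WT rhythm, 0 to 2 for KO rhythm and 0 to 1 for the rhythm difference. Genes called ran from 1 to 2399 at ZT0, 0 to 1488 at ZT4, 74 to 2411 at ZT8, 2130 to 5354 at ZT12, 569 to 3281 at ZT16, 1 to 1103 at ZT20, 272 to 626 for KO rhythm and 37 to 112 for the difference. Over transcripts the ranges were 1175 to 2141 for WT rhythm (Wnk1 models 0 to 1), 169 to 403 for KO rhythm and 45 to 89 for the difference. The start-site ratio ran from 0.0490 to 0.111.

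The letters A and B name libraries, and whether they pair them across groups is not known. Over 66 pairs of groups, the correlation of same-letter deviations ran from -0.32 to 0.34, and 21 were over 0.1. That range pools both genotypes and cannot settle the question. In WT, Cd74, a leukocyte marker picked after its values were seen, was higher in B than in A at every time. It was 220 against 123 TPM at ZT12 and 147 against 135 TPM at ZT16. In KO its order varied. With the letter as a replicate block, 7873 genes and 9 regulators were called for genotype, and no call of a regulator changed. The block left the Wnk1 ratio difference at 0.0878 (exact sign-flip permutation p = 0.17). TPM holds no depth, so the precision of low genes such as Nr3c2 is unknown.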

Other observations

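The 2 main transcripts of Nedd4l are set side by side here, a choice made after their values were seen. Nedd4l-201 ranged over 2.16 to 3.61 TPM in WT and 3.45 to 6.66 TPM in KO, a log2 difference of 0.74 (SE 0.10, adjusted p = 1.0e-05). Nedd4l-202 ranged over 5.05 to 7.33 TPM in WT and 5.21 to 8.41 TPM in KO, a difference of 0.01 (SE 0.07, adjusted p = 0.89). The difference between the transcripts was not tested.

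For Sgk1, the transcript Sgk1-201 held most of the signal, at 28.4 ± 10.6 TPM in WT and 60.8 ± 42.5 TPM in KO (SD, n = 12 each), with a difference of 0.94 (SE 0.21, adjusted p = 0.0016). Sgk1-202, whose window holds the E-box and receptor element, was 1.93 ± 0.791 TPM in WT and 2.83 ± 1.73 TPM in KO, a difference of 0.49 (SE 0.24, adjusted p = 0.12) that did not pass.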
